A study of Mus musculus with 19 samples.

Results

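Chromosome 16 (Chr16) was followed along its length in the genomic DNA of mouse liver tumors and of the unaffected livers of the same animals. Its members were all non-control probes that the array's design places on Chr16 of the mouse genome build mm9, without the 19 probes of the immunoglobulin lambda locus, which can be rearranged in B lymphocytes. There were 8927 such probes among the 234018 probes of the array. They covered the chromosome from 3.01 Mb to 98.3 Mb at a median spacing of 7.71 kb. The measurement was array comparative genomic hybridization (aCGH), in which sample DNA labeled with Cy5 and control liver DNA labeled with Cy3 compete for the same probes, so that the log2 ratio of both signals follows the DNA copy number. The array probes carried no gene names and no sequences, so that the results are given for probes and bins.

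The samples were 4 hepatocellular adenomas (HCA), 6 hepatocellular carcinomas (HCC) and the unaffected livers of the 9 mice that bore them. All 9 mice carried Mad2(f/f), a floxed allele of a spindle checkpoint gene, with Cre recombinase under the Albumin promoter, which is active in hepatocytes. Other cells of the liver keep the gene, and every unaffected liver came from such a mouse. The HCAs came from females. HCA 2430 (16.9 months of age) and HCA 6199 (12 months) were Mad2(f/f) p53(f/f), and HCA 5884 (14.2 months) and HCA 5901 (12 months) were Mad2(f/f) p53(f/+). The HCCs came from mice labeled Mad2(f/f) p53ser246+, in which p53 is mutant (their strain label has p53ser249). They were 2 tumors of female 6240 (16.2 months; HCC 6240-2 and HCC 6240-4), the tumor of female 6602 (13.2 months) and those of males 6487 (12.8 months), 6565 (14.7 months) and 6642 (12.3 months). Tumor type and p53 genotype therefore cannot be told apart. The control liver DNA came from mice labeled C57BL/6.129, the background of the study animals, and of the sex opposite to that of the sample. Each sample was hybridized to 1 array, and no dyes were swapped.

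The spindle checkpoint holds a dividing cell in mitosis until all chromosomes are attached to the spindle, and cells without it tend to gain or lose whole chromosomes. A gain of a whole chromosome raises the ratio of all its probes by the same amount, whereas a gain of a part of it leaves a step. Mouse Chr16 is telocentric, with the centromere at the start of the numbering. RefSeq lists 679 protein-coding genes for it on GRCm38.p6. Among them are genes of liver-made plasma proteins (Ahsg, Fetub, Hrg and Kng1), regulators of hepatocytes (Zbtb20, Nr1i2 and Cebpd), signalling genes (Crkl, and Gsk3b, a negative regulator of Wnt signalling), DNA replication and repair genes (Mcm4, Prkdc, Polq and Cdc45) and the receptors of interferons (Ifnar1, Ifnar2 and Ifngr2). Its distal end, with App, Runx1, Ets2 and Dyrk1a, corresponds to the human chromosome that is trisomic in Down syndrome. No value can be given for these genes, because their positions on mm9 were not at hand.

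In each array the autosomal median was set to 0, and probe ratios were averaged per chromosome or bin. The spread of neighbouring probes was 0.18 to 0.29 in tumors and 0.22 to 0.42 in livers, and liver 6240 was the noisiest. The X chromosome served as a gauge, since each sample was set against DNA of the other sex and differed from it by 1 X copy in 2. The mean ratio of X had a size of 0.95 ± 0.056 (SD, n = 9) in the livers, where full response would give 1. In the tumors it lay between 0.73 and 1.07 except in HCC 6240-2, where it was 0.32. A tumor may also have changed its X copies, which was not tested, so X is a less certain gauge there. On the array of HCC 6240-2 Chr18 was at 0.70 and Chr6 at 0.35. On the same scale 3 copies over 2 would give 0.58, a figure that holds only if every cell carries the gain and has 2 copies otherwise. Hepatocytes are often polyploid, and a tumor sample also contains other cells.

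Chr16 was raised in some tumors and not in others. The mean ratio of Chr16 was 0.63 in HCC 6602 and 0.45 in HCA 5884, the only tumors above 0.3. It was 0.18 in HCC 6240-4, 0.18 in HCA 5901 and 0.17 in HCC 6642, which made 5 tumors that stood above 0.1. With normexp background correction HCC 6642 was at 0.0042, and without background correction it was at 0.10 and HCA 5901 at 0.093. In HCA 6199 the ratio was 0.049. HCC 6240-2, HCC 6565 and HCC 6487 lay at −0.013, −0.016 and −0.023, and HCA 2430 lay lowest, at −0.10. The 9 livers ranged from −0.15 to 0.027. In HCC 6602, 99.4% of the Chr16 probes had a ratio above 0, and in HCA 5884 94.8% had, against 26.5% to 51.5% in the livers. No other autosome had so wide a range among the tumors. The highest and the lowest Chr16 ratio were 0.73 apart, followed by 0.71 for Chr18, and the SD over the 10 tumors was 0.23 for Chr16 against 0.058 to 0.20 for the other autosomes.

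**Figure D1:**
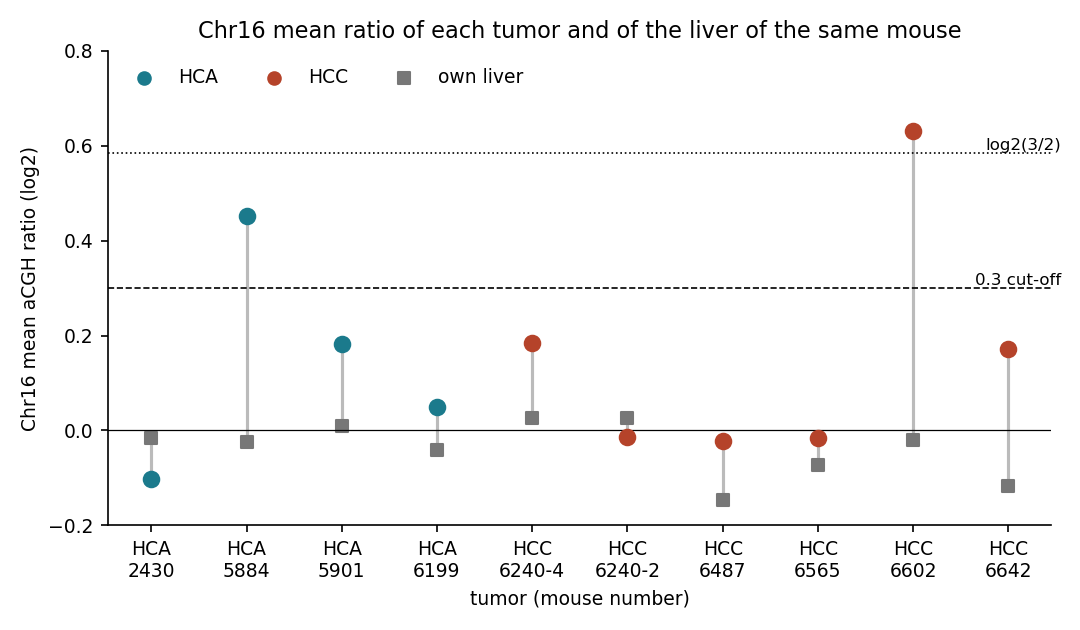
Mean log2 aCGH ratio of Chr16 (y axis) in each of the 10 tumors (circles, HCA and HCC) and in the unaffected liver of the same mouse (squares), joined by a line. The dashed line marks the cut-off of 0.3 and the dotted line the ratio of 3 copies over 2. HCA 5884 and HCC 6602 are above the cut-off, and HCA 2430 and HCC 6240-2 are below their own liver.

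Against the liver of the same mouse HCC 6602 and HCA 5884 were again the highest, while the HCCs of males stood higher than by the ratio itself. HCC 6602 exceeded its own liver by 0.65, HCA 5884 by 0.48, HCC 6642 by 0.29, HCA 5901 by 0.17, HCC 6240-4 by 0.16, HCC 6487 by 0.12, HCA 6199 by 0.089 and HCC 6565 by 0.056. The array of HCA 5901 was scanned on another day than that of its own liver, unlike all other pairs. HCC 6240-2 was 0.040 below its liver (−0.040) and HCA 2430 0.087 below (−0.087), so that 8 of 10 tumors were above their own liver. On this measure Chr16 was the highest of the 19 autosomes in HCA 5884, HCC 6602 and HCC 6642, the third in HCC 6565, the fourth in HCC 6487 and the fifth in HCA 5901 and HCC 6240-4. By the ratio itself it was the third in HCC 6642, the 14th in HCC 6565 and the 12th in HCC 6487, males whose own livers were low on Chr16. By p53 genotype, the HCAs of p53(f/+) mice had the higher ratios (0.45 and 0.18, against −0.10 and 0.049 in p53(f/f) mice), but 2 against 2 cannot give an exact p below 0.333, and that was the value reached. Both tumors of female 6240 were set against the same liver, yet differed by 0.20 (0.18 and −0.013). Tumor 2 of this mouse instead had its highest ratios on Chr18 (0.70) and Chr6 (0.35), where tumor 4 had −0.016 and −0.16.

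The ratio of the unaffected livers themselves was not the same in both sexes. Chr16 was −0.15, −0.12 and −0.072 in the livers of males 6487, 6642 and 6565, and between −0.040 and 0.027 in the 6 livers of females, without overlap. The means were −0.11 ± 0.037 (SD, n = 3) and −0.011 ± 0.025 (SD, n = 6). The difference of −0.10 was the largest of the 19 autosomes and reached the smallest p that 84 splits allow, but did not pass adjustment (exact two-sided permutation test, p = 0.0119, adjusted p = 0.0754). It ran along the whole chromosome. In 19 of 20 bins of 5 Mb every male liver was below every female liver, and the bin differences lay between −0.12 and −0.078. Male samples were hybridized against female control DNA and female samples against male control DNA, so that the sample and the control cannot be told apart as the source. This comparison was chosen after the values were seen.

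Chr16 was higher on average in both tumor types than in unaffected livers, with the tumors spread over several times the range of the livers. The 4 HCAs averaged 0.15 (SD 0.23), the 6 HCCs 0.16 (SD 0.25) and the 9 livers −0.044 (SD 0.058). HCAs exceeded livers by 0.19, and 3 of 4 lay above all 9 livers (exact two-sided permutation test, p = 0.0294, adjusted p = 0.0372 over 19 autosomes). Of all autosomes, 42.1% were called higher in this comparison. All HCAs came from females, and against the 6 female livers the difference was 0.16 and was not called (exact permutation test, adjusted p = 0.133). HCCs exceeded livers by 0.20, and 3 of 6 lay above all livers (exact two-sided permutation test, p = 0.0108, adjusted p = 0.0342), against 10.5% of the autosomes called higher, which were Chr16 and Chr15. HCC and HCA differed by 0.011 (exact two-sided permutation test, p = 0.948, adjusted p = 0.967). The sign turned when HCC 6602 (−0.084), HCA 2430 (−0.071) or HCA 6199 (−0.021) was left out.

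These calls were lost in several ways. In limma with a replicate block for the mouse, HCAs exceeded livers by 0.16 ± 0.099 (SE, adjusted p = 0.179) and HCCs by 0.22 ± 0.086 (SE, adjusted p = 0.0639). The HCA call was lost without HCA 5884 (difference 0.087), HCA 5901 (0.18), HCA 6199 (0.22), liver 6487 (0.18) or liver 6642 (0.18), where the exact permutation tests gave an adjusted p of 0.0531 to 0.163. The HCC call was lost without HCC 6602 (difference 0.11), HCC 6240-4 (0.19), HCC 6642 (0.20), liver 6487 (0.19), liver 6565 (0.20) or liver 6642 (0.19), where the adjusted p was 0.0559 to 0.0854 (exact permutation tests). Between the 3 HCCs and the 6 livers of females the difference was 0.28 and was not called (exact permutation test, adjusted p = 0.113), and between the 3 HCCs and the 3 livers of males it was 0.16, with every male HCC above every male liver. Permuted within the sexes, a test added after the values were seen, HCCs exceeded livers by 0.23 (exact, p = 0.00179, adjusted p = 0.0113). Arrays were scanned on 3 days. HCAs exceeded livers by 0.18 on the first day (2 HCAs, 3 livers) and by 0.21 on the second (2 HCAs, 2 livers), and HCCs exceeded livers by 0.071 on the second (1 HCC, 2 livers) and by 0.24 on the third (5 HCCs, 4 livers). Permuted within days, the HCA difference was 0.20 (exact, adjusted p = 0.148) and the HCC difference 0.20 (exact, adjusted p = 0.176).

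The 20 bins of 5 Mb gave the shape of Chr16 in each sample. HCA 5884, HCA 5901, HCC 6240-4 and HCC 6602 were above every liver in 20 of 20 bins, HCC 6642 in 19, HCA 6199 in 9, and the other 4 tumors in 0. This count used the livers of both sexes, and those of males were lower on Chr16. HCC 6487 and HCC 6565, both from males, exceeded their own livers by 0.12 and 0.056 over the chromosome. HCC 6602 ran from 0.45 to 0.76 over the bins and HCA 5884 from 0.35 to 0.56. HCC 6642 ran from −0.0041 to 0.25, and its lowest bin was the last of the chromosome. HCA 5901 and HCC 6240-4 stayed between 0.13 and 0.23 and between 0.13 and 0.22. HCA 2430 was below 0 in every bin, from −0.15 to −0.045.

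**Figure D2:**
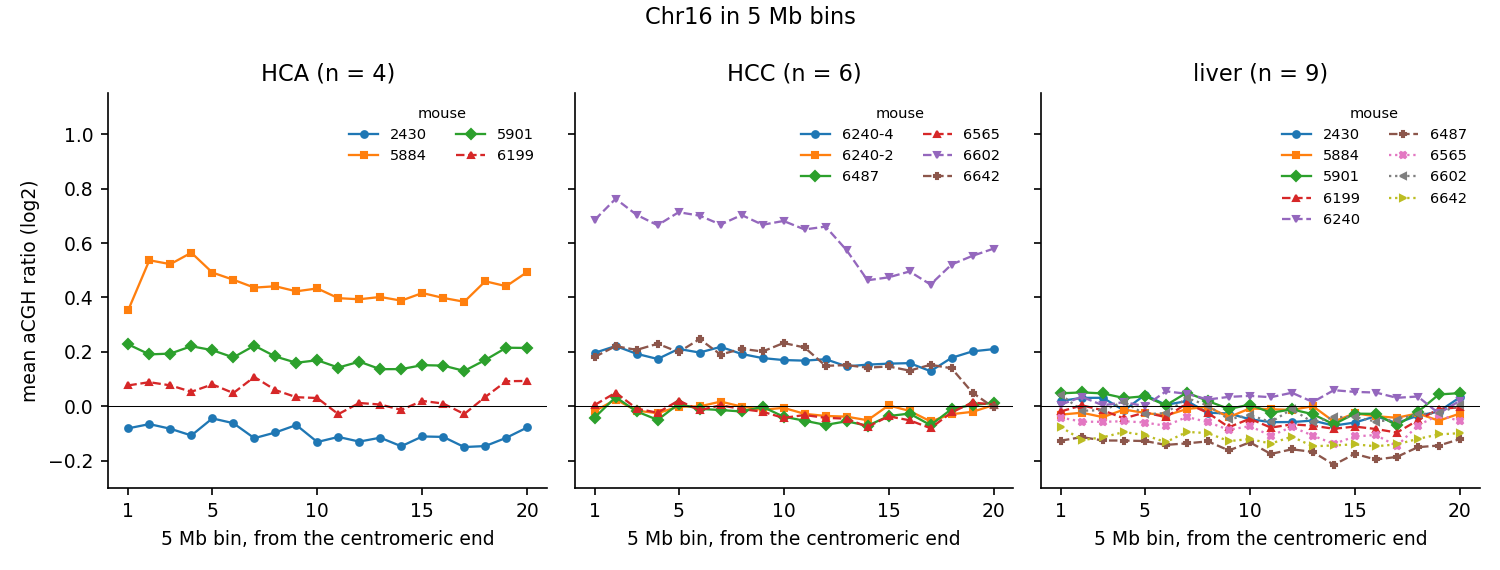
Mean log2 aCGH ratio (y axis) of the 20 bins of 5 Mb along Chr16 (x axis, bin number from the centromeric end) in the 4 HCAs, the 6 HCCs and the 9 livers, 1 line per sample, named by mouse. HCC 6602 and HCA 5884 stand above all other samples over the whole chromosome, and HCC 6642 falls to the level of HCC 6240-2, HCC 6487 and HCC 6565 in the last bin.

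Tested bin by bin in limma, Chr16 hardly passed the threshold, as the tumors of a group differed widely. The median difference between HCA and liver over the 20 bins was 0.18 against 0.023 over all 500 autosomal bins, and 0 of 20 bins were called (limma, lowest adjusted p = 0.0662; 6 had an unadjusted p under 0.05, as had 56.6% of all bins), whereas 18.8% of all bins were called higher. Between HCC and liver the median difference was 0.19 against 0.011 over all bins. The bin from 40 to 45 Mb was the only one of 20 called, with 0.17 ± 0.26 in HCC and −0.061 ± 0.060 in liver (difference 0.23 ± 0.083, SE, limma, adjusted p = 0.0474; 19 of 20 had an unadjusted p under 0.05, as had 37.2% of all bins), and 4.6% of all bins were called higher. With a replicate block for the mouse (lowest adjusted p = 0.0501) or the scan day as a block (0.102), limma called 0 of 20. Between HCC and HCA 0 of 20 bins were called (limma, lowest adjusted p = 0.855; 0 had an unadjusted p under 0.05, against 32.4% of all bins), beside 21.2% of all bins called in either direction. The median SD of a Chr16 bin was 0.23 among HCAs, the highest of all autosomes, 0.27 among HCCs, second to Chr18, and 0.061 among livers.

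The count of bins followed the test and the samples. Exact permutation tests called 12 of 20 bins in HCA and 11 of 20 in HCC, against 33.4% and 6% of all bins called higher. In limma, which pools the spread of all groups, 19 bins were called in HCA without HCC 6602 (25% of all bins were then called higher), 13 without HCA 2430 (10%) and 1 without HCC 6240-2 (24.2%). In HCC, 18 were called without HCC 6240-2 (16.2% of all bins), 12 without HCC 6565 (10%), 10 without HCC 6487 (6.6%), 7 without HCA 2430 (8%) and 7 without HCA 5884 (5.8%). Leaving out any other sample left 0 in either tumor type. The samples whose omission raised the HCC count were tumors, and the 3 HCCs among them lay below 0 on Chr16.

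To describe evenness, the mean of the 8 livers of other mice was taken off each bin, and the SD over the 20 bins was formed. It was 0.012 in HCC 6240-4 and 0.016 in HCA 5901, within the range of the livers (0.013 to 0.041) or below it, so that these gains of about 0.24 and 0.23 over the livers were level along the chromosome. It was 0.082 in HCC 6602, 0.064 in HCC 6642 and 0.047 in HCA 5884, above every liver, and 0.019 to 0.027 in the other tumors. In HCC 6642 all 19 autosomes were above the highest Chr16 value of a liver, from 0.041 to 0.071, so that its unevenness was not particular to Chr16. In HCC 6602 and HCA 5884 9 and 7 autosomes were, against 10 in HCA 2430 and 0 to 5 in the remaining tumors. In liver 6240 13 were, and in the other livers 1 to 5. The bar is thus low for autosomes that are less even than Chr16 in livers. Between the groups no difference passed the threshold. The mean was 0.029 ± 0.013 (SD, n = 4) in HCA and 0.021 ± 0.0088 (SD, n = 9) in liver (exact two-sided permutation test, p = 0.243, adjusted p = 0.651). In HCC it was 0.037 ± 0.029 (SD, n = 6; exact two-sided permutation test, p = 0.157, adjusted p = 0.808). In these comparisons 0% of the autosomes were called, and 2 and 0 of 19 had an unadjusted p under 0.05. Among the autosomes of a sample, Chr16 was the fourth most uneven in HCC 6602 and HCC 6642, the sixth in HCA 5884 and between the 15th and the 19th in the other tumors. In the livers it was between the 14th and the 19th, and in liver 6642 the 19th.

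**Figure D3:**
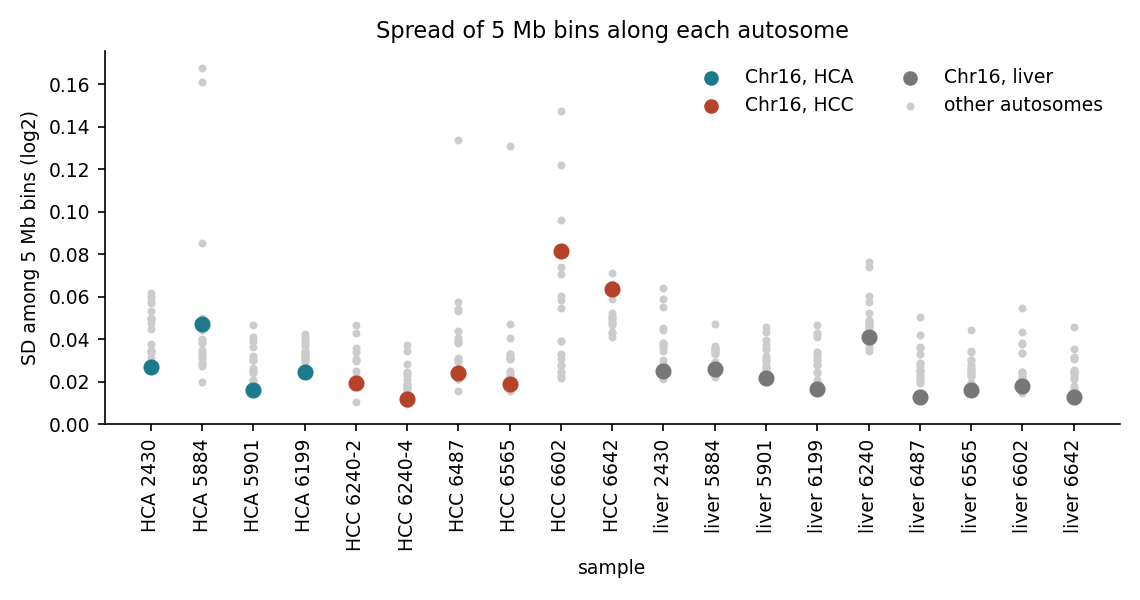
SD over the 5 Mb bins of an autosome (y axis, log2) in each sample (x axis), after the mean of the other mice's livers was taken off each bin. Large points are Chr16 and small grey points the 18 other autosomes. Chr16 is above every liver in HCA 5884, HCC 6602 and HCC 6642, and among the lowest autosomes of most samples.

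The probe-level profile placed the steps of the uneven tumors. The chromosome was divided wherever the mean on both sides differed, relative to probe noise, by more than at any division of the 9 livers (highest score 8.24), with at least 200 probes to a segment. This method was chosen after the profiles were seen, so its steps are a description without a test. In total 4 steps were kept, in 3 tumors. In the 7 other tumors none was kept.

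In HCC 6602 the step was at 63.7 Mb (score 37.7; positions from 59.0 to 65.5 Mb scored within 5% of it). The 6065 probes before it averaged 0.73 above the livers and the 2858 probes after it 0.57, a fall of 0.16 (−0.16). Both parts were far above the own liver, by 0.70 and 0.54. HCC 6602 was thus raised over the whole chromosome, at 2 levels. Its bins of 5 Mb went from 0.66 (55 to 60 Mb) through 0.57 to 0.46 (65 to 70 Mb), and rose again to 0.58 in the last bin. Against its own liver in place of the 8 others, and under both other background corrections, the step was again at 63.7 Mb.

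In HCC 6642 the step was at 89.6 Mb (score 24.9; 88.8 to 91.3 Mb). The 7906 probes before it averaged 0.23 above the livers and the 1017 probes after it 0.054, a fall of 0.17 (−0.17). In the last 5 Mb bin this tumor was 0.0086 above the livers. Its bins of 5 Mb lay between 0.18 and 0.25 up to 55 Mb and between 0.13 and 0.15 from there to 90 Mb, and the last 2 were 0.050 and −0.0041. With normexp background correction the step lay at 59.8 Mb instead, and against the own liver there was a further step at 54.0 Mb. Male 6642 was among the mice with a low liver, and against its own liver the parts were at 0.31 and 0.13.

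In HCA 5884 the gain was highest in a proximal stretch. The first 293 probes, up to 5.67 Mb, averaged 0.36 above the livers, the 1878 probes from 5.69 to 22.6 Mb averaged 0.58, and the 6751 probes beyond averaged 0.48. The ratio of its first 5 bins of 5 Mb was 0.35, 0.54, 0.52, 0.56 and 0.49. The steps were 0.22 and −0.072. Their scores (14.4 and 12.0) were lower than those of both HCCs, and neither was kept with normexp background correction. The position of the first step moved to 8.38 Mb against the own liver and to 6.99 Mb with segments of at least 400 probes.

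**Figure D4:**
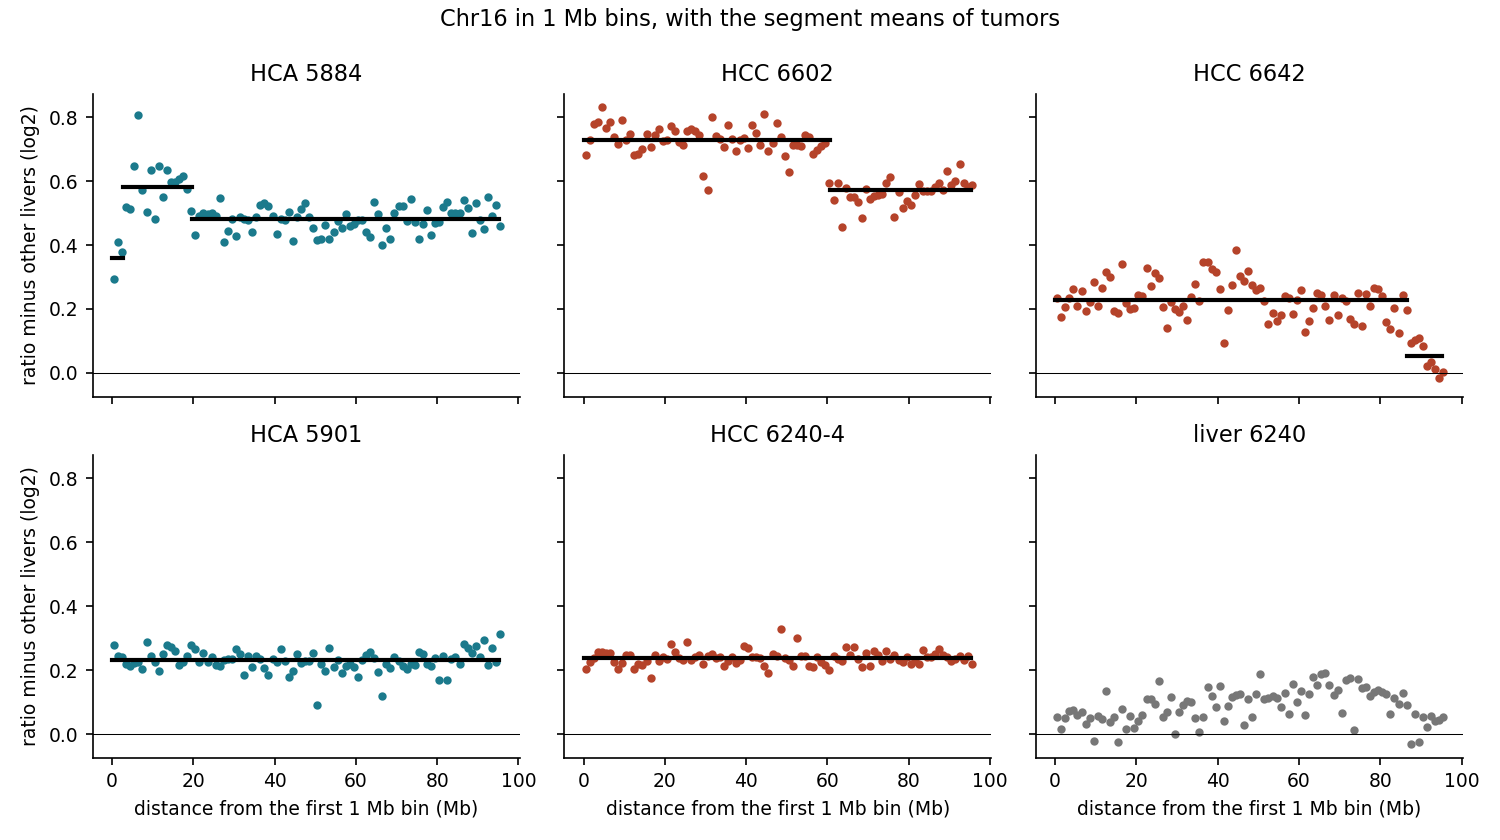
Log2 aCGH ratio minus the mean of the other mice's livers (y axis) in bins of 1 Mb along Chr16 (x axis, distance from the first bin) in 5 tumors and liver 6240. Points are bins and black lines the segment means of tumors. HCC 6602 drops from 0.73 to 0.57, HCC 6642 from 0.23 to 0.054, HCA 5884 has 3 levels, and HCA 5901 and HCC 6240-4 have 1.

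Short changes within Chr16 were sought in 446 windows of 20 probes, taking tumor minus own liver and then subtracting the Chr16 median. In all 10 tumors 14 windows were beyond 0.3, of which 5 were higher and 9 lower, and 0 were beyond 0.5. They fell in 5 tumors. In HCA 5884 a run of 5 windows at chr16:8696906-9991504 was 0.32 to 0.37 above the rest of the chromosome. At 100 probes over 1295 kb it was the longest run, its mean ratio was 0.76, and it lay inside the highest segment of that tumor. In the other 9 tumors the same stretch was between −0.039 and 0.090 relative to the rest of the chromosome. In HCC 6642 a run of 3 windows at chr16:44721128-45182906, 60 probes over 462 kb, was 0.46 to 0.48 below the rest. By the same measure the other 9 tumors were between −0.11 and 0.050. The plain ratio of HCC 6642 there was −0.26, below 0, and that of its own liver −0.082, a difference of −0.17. The single windows were at chr16:46412051-46654331 in HCA 5901 (−0.39), where the tumor was at 0.076 and its own liver high, at 0.30, chr16:94748844-94891454 in HCC 6642 (−0.37) and chr16:56022218-56180672 in HCA 5884 (−0.36). The remaining windows were 2 in HCC 6487 and 1 in HCC 6602, each at −0.31. Each liver against the mean of the other livers had 3 windows beyond 0.3 in total, none of them among these windows. A mean of livers is less noisy than a single own liver, so that both counts are not like for like. No test was made on windows, and the number depended on their size, with 95 for 10 probes and 3 for 40 probes.

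Tumors with a Chr16 gain also had a gain of Chr15, which carries the oncogene Myc, but so did some others. All 5 tumors with a Chr16 ratio above 0.1 had Chr15 above 0.3, at 0.46 in HCA 5901, 0.39 in HCA 5884, 0.38 in HCC 6602, 0.37 in HCC 6240-4 and 0.33 in HCC 6642. The converse did not hold. HCA 2430 had Chr15 at 0.45 with Chr16 at −0.10, and HCA 6199 had 0.26 and 0.049. HCC 6240-2, HCC 6565 and HCC 6487 had the lowest Chr15 ratios, 0.051, 0.038 and 0.12. The cut-offs for Chr16 and Chr15 were not the same. Only HCA 5884 and HCC 6602 had Chr16 above 0.3. Chr15 was above 0.1 in every tumor except HCC 6240-2 and HCC 6565, so that its gain was common with or without Chr16. Besides Chr15 and Chr16, no autosome was above 0.3 in HCA 5884 and HCC 6602. Chr1 was at 0.30 in HCC 6240-4 and 0.29 in HCC 6602, and Chr18 was at 0.32 in HCC 6642. Chr15 was not the only autosome changed in all 5 tumors. In them Chr1 lay between 0.13 and 0.30 and Chr9 between −0.34 and −0.11. Chr3 lay between −0.28 and −0.16 and Chr13 between −0.36 and −0.16. HCA 2430 (−0.28 and −0.32) and HCA 6199 (−0.30 and −0.28) were low on Chr3 and Chr13 as well, and HCC 6487 (−0.42) and HCC 6565 (−0.32) on Chr13. Chr1 was also raised in HCA 2430 (0.52), HCC 6565 (0.24) and HCA 6199 (0.15). Chr9 was low in the same tumors (−0.37, −0.23 and −0.11).

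**Figure D5:**
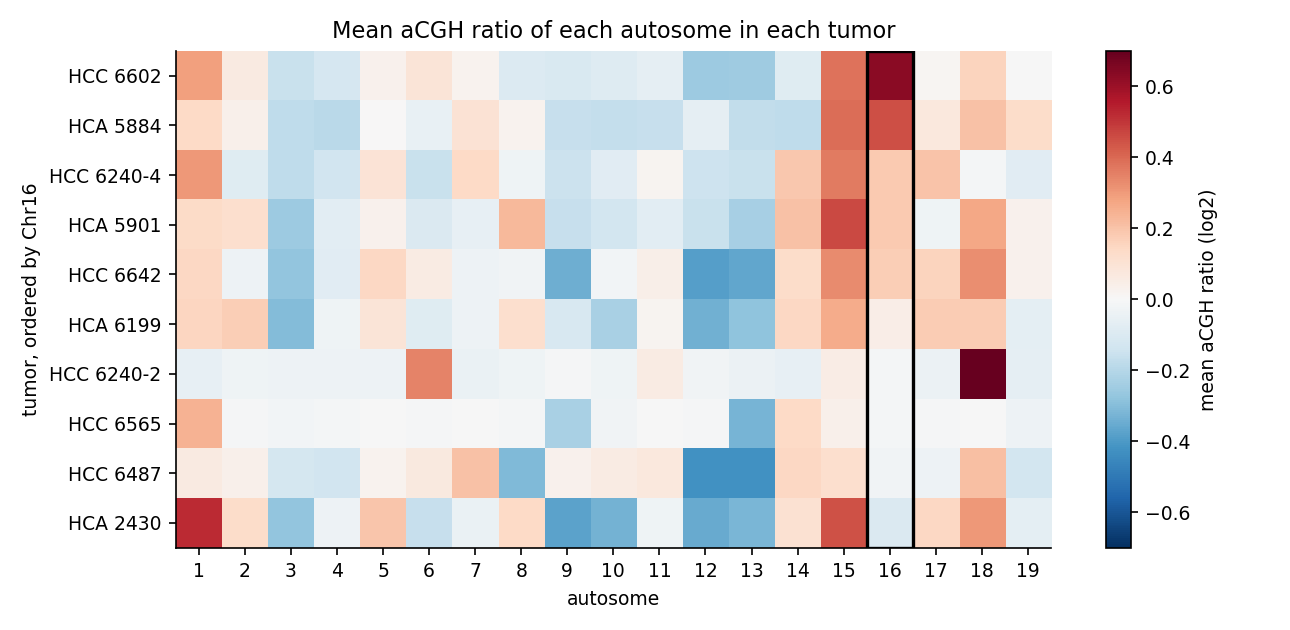
Mean log2 aCGH ratio (color) of the 19 autosomes (x axis) in the 10 tumors (y axis, ordered by Chr16 from high to low), with Chr16 framed. The 5 tumors at the top have a Chr16 ratio above 0.1 and a Chr15 ratio above 0.3, and HCA 2430 at the bottom has Chr15 at 0.45.

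Over all 10 tumors no autosome followed Chr16 beyond the threshold. For Chr15 Pearson's r was 0.47 (permutation test, p = 0.165, adjusted p = 0.593 over 18 autosomes) and Spearman's rho 0.41 (permutation test, p = 0.247, adjusted p = 0.883). Without HCA 5884 and HCC 6602, the tumors farthest from the median, r was 0.45. Chr19 had the highest r, 0.65 (permutation test, p = 0.0435, adjusted p = 0.281; rho 0.52, p = 0.134, adjusted p = 0.740), and r was 0.57 without these tumors. Taken as differences from the own liver, Chr19 had r of 0.24 (permutation test, p = 0.503, adjusted p = 0.9997), Chr15 0.36 (permutation test, p = 0.302, adjusted p = 0.907) and Chr13 0.38 (permutation test, p = 0.285, adjusted p = 0.907). Chr4 had r of −0.65 (permutation test, p = 0.0400, adjusted p = 0.281; rho −0.48, p = 0.164, adjusted p = 0.740), which became −0.45 without HCA 5884 and HCC 6602. Chr11 had r of −0.64 (permutation test, p = 0.0469, adjusted p = 0.281; rho −0.49, p = 0.152, adjusted p = 0.740), which became −0.19. As differences from the own liver, Chr4 kept r of −0.67 (permutation test, p = 0.0337, adjusted p = 0.606) and Chr11 had −0.54 (permutation test, p = 0.107, adjusted p = 0.782). In the 6 HCCs alone Chr15 had r of 0.78 (exact permutation test, p = 0.0278, adjusted p = 0.475) and rho of 0.83 (exact permutation test, p = 0.0583, adjusted p = 0.525). Chr15 was not alone in this. Chr11 had r of −0.82 (exact permutation test, p = 0.0528, adjusted p = 0.475) and Chr10 rho of −0.83 (exact permutation test, p = 0.0583, adjusted p = 0.525). The ratios of an array are centred together, so that they are not independent, and both HCCs of mouse 6240 are in this count.

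Across mice, Chr16 did not differ from Chr15 or Chr18 beyond the spread between mice. With the HCCs of mouse 6240 averaged, the difference between tumor and own liver was lower on Chr16 than on Chr15 by 0.065 (−0.065 ± 0.24, SD, n = 9; exact sign-flip test, p = 0.477, adjusted p = 0.664), with Chr16 lower in 4 of 9 mice. In HCCs alone the sign turned, to 0.065. The difference was higher on Chr16 than on Chr18 by 0.041 ± 0.25 (SD, n = 9; exact sign-flip test, p = 0.664, adjusted p = 0.664), with Chr16 lower in 5 of 9 mice, and without mouse 6602 it was −0.019.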

How the data were processed

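Genomic DNA of 4 HCAs, 6 HCCs and 9 livers was hybridized to 2-colour Agilent mouse CGH arrays of 243301 spots each, and the authors deposited the scanner output of Feature Extraction 10.5.1.1. The deposited log10 ratio of red (sample) over green (control) had been background-subtracted with spatial detrending and linearly dye-normalized, and the deposited intensity columns were used for other background corrections. The table deposited for the whole series repeats these ratios. Control spots and 3 to 28 outlier spots per array on Chr16 were left out, saturated spots were kept, spots of a probe were averaged, and ratios were converted to log2 and centred. Between 98.9% and 100.0% of Chr16 spots were well above background, and precision is limited by how many arrays there are.

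Groups came from the labels. Autosome means were compared by exact permutation with Benjamini-Hochberg adjustment, and 5 Mb bins (at least 50 probes) in limma 3.58.1 (R 4.3.3) with all 19 arrays; correlations used 100000 permutations, and the rest ran in Python 3.11.15 with scipy 1.17.1. Centring, chromosome and bin means, the exact group test, limma without blocks and the search for a single step were tested on simulated data. The other steps were not. Alternatives covered background correction, normalization, centring, summaries, bins, blocks and omitted samples. Tumors and livers are paired by mouse. The deviations of a tumor and its own liver from their group means correlated at −0.055 to 0.27 over 500 bins (median 0.17). The rule for naming took any 5 Mb bin, every window beyond 0.5 and at most the 10 largest beyond 0.3. Values of genes were not analysed here. The members, lists and rules were chosen with earlier results of these data known.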

Additional observations from a re-analysis of the deposited data

Results flagged for a closer look

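HCC 6602 stood apart from the other HCCs, with a Chr16 mean ratio of 0.63 where the other 5 lay between −0.023 and 0.18. Its gap to the next tumor was 0.68 of the whole range of the group. Liver 6240 stood apart from the other livers in evenness, with an SD among Chr16 bins of 0.041 where the others lay between 0.013 and 0.026. This array also had the largest spread of neighbouring probes, 0.42. Without it the tumors were more uneven than the livers by 0.010 in HCA (adjusted p = 0.170, exact permutation test) and by 0.018 in HCC (adjusted p = 0.591), neither of them called. In all 8 groups of values were checked for a sample that stands apart, and chance flags about 1 in 20 such groups.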

How the results depend on the processing

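The difference between HCA and liver kept its sign under all 30 alternatives and lost its call under 11, at 0.17 without centring, 0.16 in limma with a replicate block for the mouse, 0.22 with the scan day as a block, 0.16 by exact sign flips against the own liver (which cannot go below p = 0.125), 0.16 in females and 0.20 within scan days. Omitting single samples gave 0.087 to 0.27. The difference between HCC and liver kept its sign under all 34 and lost its call under 13, at 0.13 with normexp, 0.18 centred on Chr7, Chr11 and Chr19, 0.22 with the replicate block, 0.19 with the day block, 0.24 by sign flips (smallest possible exact p = 0.0625), 0.28 in females and 0.20 within days. Omitting single samples gave 0.11 to 0.24. Between HCC and HCA the sign turned at −0.034 centred on these 3 autosomes, −0.023 with the day block and −0.14 within days, and omissions gave −0.084 to 0.11. The methods' Tukey comparisons kept both calls. The sex and day tests and that centring were added after the data were seen.

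Bins called in HCA were 1 with 2 Mb bins, 1 with the HCCs of mouse 6240 averaged and 12 by exact tests, and 0 to 19 with omissions. Bins called in HCC were 6 (of 49) with 2 Mb bins, 8 without background correction, 19 without centring, 5 with these HCCs averaged, 11 by exact tests, 0 with 10 Mb bins, normexp, centring outside Chr16, the replicate block or the day block, and 0 to 18 with omissions. Between HCC and HCA the count was 0 throughout, and no omission changed it. Unevenness in HCA turned to −0.0089 with normexp and −0.00081 without background correction, with 0.0015 to 0.012 for omissions, and in HCC omissions gave 0.0065 to 0.020 and −0.0025 without HCC 6602 and HCC 6642, an omission added after these were seen to be the most uneven.

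With either other background correction 1 tumor passed 0.3, HCC 6602, at 0.49 and 0.39, while HCA 5884 was at 0.14 with normexp and 0.22 without correction. In the tumors the size of the X ratio, which measured 0.32 to 1.07 here, was 0.074 to 0.78 with normexp and 0.15 to 0.67 without correction. Against Chr15 the difference was 0.065 in HCCs alone and −0.11 to −0.0052 without single mice, and against Chr18 −0.019 to 0.094. Windows numbered 95 and 3 with 10 and 40 probes. Gene-level tests were not run, as genes could not be placed on mm9.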
